A study of Ovis aries with 12 samples.

Results

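The net remodelling of sheep back muscle from mid gestation to day 243 of life was followed by setting the 3 oldest libraries of the series against the 3 youngest. The youngest were taken at day 85 of gestation (G85) and the oldest at day 243 after birth (D243). These 6 libraries belong to a series of 12. The other 6 come from day 133 of gestation (G133) and day 42 after birth (D42), 3 at each, and divide the span into 3 steps. All 12 hold polyadenylated RNA of longissimus muscle from crosses of Suffolk and Texel sheep, and the labels name no treatment, sex or litter. The G85 and D243 libraries carry different numbers in their descriptions, whereas D42 and D243 share the same 3. These numbers were taken as the animals, which no label states. All 15743 genes of the deposited table were tested. They carry Ensembl identifiers that could not be paired with gene symbols here, so groups of genes are described by how they moved, and only 4 genes are named. For the same reason the tissue label was not checked against muscle markers.

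Skeletal muscle fibres are multinucleate cells made by the fusion of myoblasts. In sheep most fibres form before birth, in successive waves, and later growth is mainly enlargement of existing fibres. Maturing fibres replace embryonic and neonatal forms of contractile proteins with adult ones and build up calcium handling and energy metabolism, while cell division and matrix production decline.

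Expression is given in CPM, the reads of a gene per 1000000 reads of its library. The CPM of the median gene fell by 0.92 on the log2 scale from G85 to D243. Changes are therefore given relative to the median gene. Each library was divided by its median ratio to the geometric mean of all 12, and the result is called scaled CPM. Log2 changes are differences of log2(scaled CPM + 1), which understates the change of low genes. The recovered totals of the 6 end libraries were 15637901 to 21793358 reads, and the other 6 held 10556715 to 23255962. Any library lacked reads for at most 0.381% of genes. G133 replicate 1 stood apart from the other G133 libraries, and results that move by over 1.5 times without it are given so.

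A majority of the genes differed between the ends of the span, in nearly equal numbers either way. Relative to the median gene, 4351 genes were higher at D243 and 4399 lower (limma, adjusted p under 0.05). Together these are 8750 of 15743, or 55.6%. The median log2 change was 0.97 among the higher genes and -0.84 among the lower ones. In whole tissue, a gene can be lower because cells that express it are fewer or because each holds less of its RNA, and these cannot be told apart. Among CPM as deposited, 13328 genes (84.7%) changed, of which 1449 were higher and 11879 lower. In 1066 genes the direction turned between the scales, always higher relative to the median gene and lower in CPM. Which direction had more genes is thus a matter of the scale and not of these measurements.

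Large changes were more often rises on the scale relative to the median gene, and more often falls in deposited CPM. At least 2-fold changes numbered 2120 higher and 1732 lower. At least 4-fold, 797 were higher and 418 lower, which is 7.72% of all genes. At least 16-fold, 95 were higher and 30 lower, and at least 64-fold, 18 were higher and 3 lower. In deposited CPM the counts were 831 higher and 7067 lower at 2-fold, 330 and 1416 at 4-fold, 36 and 85 at 16-fold, and 7 and 9 at 64-fold. As the root mean square of log2 differences, the distance between a G85 and a D243 library was 1.11 to 1.18, against 0.23 to 0.347 within G85 and 0.31 to 0.468 within D243. Each pair that crosses the span was therefore farther apart than any pair within an end.

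Relative to the median gene, rises outnumbered falls among abundant genes and falls outnumbered rises among scarce ones. Genes were ranked by the mean of their log2 levels at both ends, which favours neither direction. Of the first 50, 39 were higher at D243, 6 lower and the rest not called, with a median log2 change of 2.84. Of the next 450, 174 were higher and 75 lower, although in deposited CPM 124 were higher and 285 lower. The 4500 genes after these held 1708 higher and 1096 lower ones (633 and 3230 in deposited CPM). The 10743 genes below them held 2430 higher and 3222 lower (658 and 8355). The share of genes with a change of at least 4-fold fell along these bands, from 74% to 25.3%, 10.2% and 5.63%. For the first 50 genes the balance was on the side of rises in deposited CPM as well, with 34 higher and 9 lower. Counting is more exact and the pseudocount matters less for abundant genes, so the bands differ in how readily a change is seen.

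The genes called in the net change were then followed through the middle ages. The genes had been chosen by their G85 and D243 values, so their net size is a description. The levels at G133 and D42 took no part in the choice, apart from the estimate of spread. The mean log2 level of the 4351 rising genes was 3.97 to 4.08 in the G85 libraries and 4.45 to 4.47 at G133. It was 4.98 to 5 at D42 and 5.29 to 5.33 at D243. Each age lay above the one before it, with no overlap between libraries. For the 4399 falling genes the mean level was 4.22 to 4.32 at G85 and 3.73 to 3.77 at G133, then 3.34 to 3.46 and 3.18 to 3.23 at the postnatal ages. These ranges do not overlap either.

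**Figure D1:**
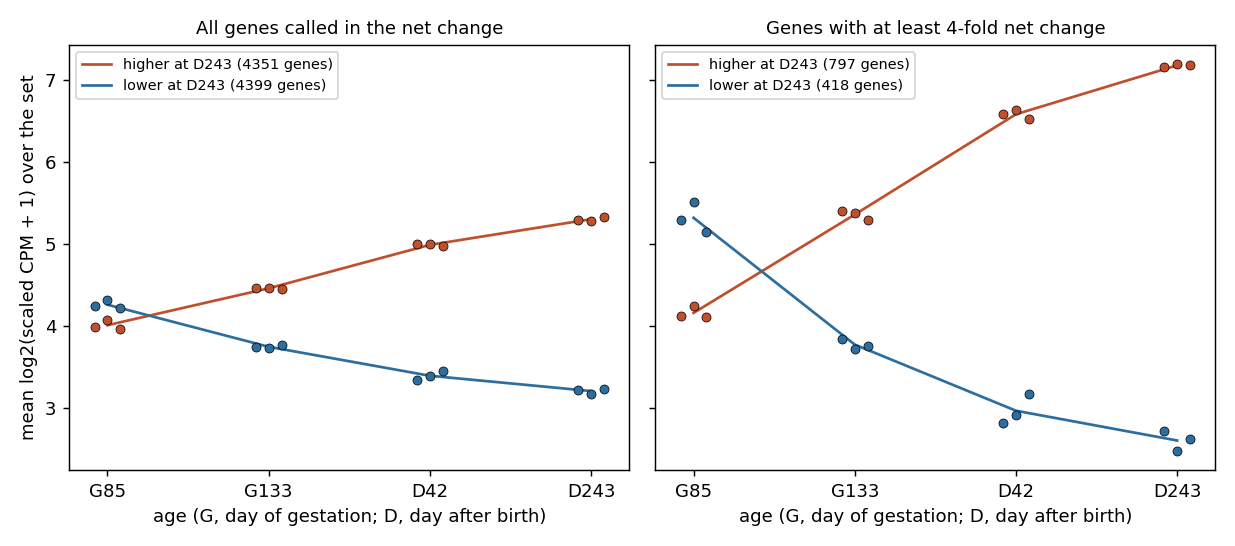
Mean log2(scaled CPM + 1) of the genes that were higher (red) or lower (blue) at D243, for all called genes (left) and those changed at least 4-fold (right). Each point is a library, 3 per age, and lines join the age means. The 4351 rising genes climb at every step, and the 418 strongly falling genes drop by 1.55 on the log2 scale at the first step.

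The rises were spread over the 3 steps. A larger part of the falls than of the rises came before G133, by a margin that changed with the scale. On some scales the errors of these parts overlapped. Of the mean rise of 1.29 on the log2 scale, 34.6% ± 4.35 was made from G85 to G133, 41.3% ± 1.29 from G133 to D42 and 24.1% ± 1.72 from D42 to D243. The error is the SD of the difference between libraries of the neighbouring ages, n = 3 each. Of the mean fall of -1.05, 48.3% ± 5.21 was made at the first step, 33.9% ± 6.24 across birth and 17.9% ± 6.52 at the last step. With the 50 most abundant genes left out of the total, the first step made 32.3% ± 11 of the rise. The step across birth then made 55.4% ± 11 of it and the last step 12.2% ± 1.64. The parts of the fall were then 47.1% ± 12.4, 21.8% ± 12.5 and 31.1% ± 4.78, so the errors of rise and fall overlapped at the first step. The order of the last pair of steps of the fall turned, within overlapping errors, and the cause was not tested. In deposited CPM the first step made 37.8% ± 9.88 of the rise and 42.4% ± 8.94 of the fall, with overlapping errors. With quantile normalization these parts were 39.9% ± 2.64 and 45.3% ± 1.67. Chance deviations of the G85 and D243 libraries enter both the choice of genes and the outer steps, which adds to the first and last parts. The first and last steps span 48 and 201 days. For the 797 genes that rose at least 4-fold, the parts were 39.7% ± 3.17, 40.5% ± 2.76 and 19.8% ± 2.02. For the 418 that fell at least 4-fold they were 57.0% ± 7.25, 29.7% ± 7.08 and 13.3% ± 7.89.

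Single genes varied widely around these means. Among the 797 strong rises the median gene had made 36.8% of its net change by G133 (quartiles 20.8% and 56.1%) and 82.0% by D42 (69.6% and 91.9%). Among the 418 strong falls the median gene had made 59.6% by G133 (42.2% and 71.2%) and 85.7% by D42 (78.2% and 95.7%). The largest of the 3 steps was the first for 325 strong rises, the step across birth for 380 and the last for 92. For the strong falls it was the first for 306, or 73.2%, the step across birth for 98 and the last for 14. By D42, 94 of the strong rises and 72 of the strong falls stood beyond their D243 level. These are orders of means, with no test for a single gene.

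**Figure D2:**
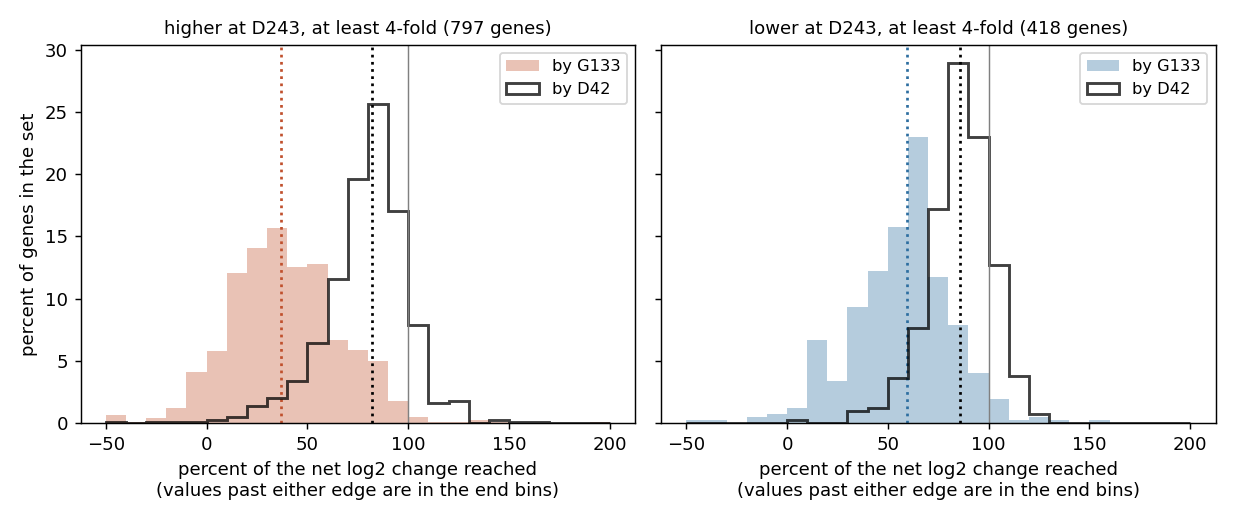
Percent of the net log2 change reached by G133 (filled) and by D42 (black outline) in genes that rose (left, 797 genes) or fell (right, 418) at least 4-fold, as percent of the genes in each panel. Dotted lines mark the medians, 36.8% and 82.0% for rises and 59.6% and 85.7% for falls, and the grey line marks the D243 level.

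For a minority of genes the leading step could be told apart by a test. A step was taken to lead where its change in the direction of the net change exceeded those of both other steps. The p was the larger of both limma contrasts, adjusted over all genes. This held for 975 genes, or 6.19% of all genes. Of the rises, 223 were led by G85 to G133, 239 by G133 to D42 and 36 by D42 to D243. Of the falls, 321 were led by G85 to G133, 127 by G133 to D42 and 29 by D42 to D243. The other 3853 rises and 3922 falls had no step that passed this test, which does not show that their steps were equal. The counts moved as single libraries were left out, which also leaves fewer libraries to test. Leaving out G133 replicate 2 or 3 or D42 replicate 2 or 3 moved each of these 6 counts by over 1.5 times, and of the other libraries only D243 replicate 2 moved none. Without G133 replicate 1 the rises numbered 384, 500 and 45 and the falls 445, 418 and 45. Without G133 replicate 2 the rises numbered 97, 80 and 13 and the falls 100, 22 and 13. Which of the first steps led more rises therefore changed with the libraries used, whereas more falls were led by the first step than by the step across birth in both of these cases.

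By step, 28.3% of all genes were called from G85 to G133, 32.4% from G133 to D42 and 11.7% from D42 to D243 (limma, adjusted p under 0.05). The net change and the steps share libraries, so a gene called in the first is more readily called in the others, and the following counts are descriptions. Of the 4351 rises, 1560 were called higher at the first step, 2183 across birth and 968 at the last step. Of the 4399 falls, 1930, 1489 and 466 were called lower at these steps. All 3 steps passed in the direction of the net change for 175 rises and 58 falls. A single step passed, with none against it, for 2018 rises and 2287 falls. Among the rises this was the first step for 657, the step across birth for 1084 and the last for 277. Among the falls it was the first for 1215, the step across birth for 892 and the last for 180.

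Many net changes were made of steps that were each too small to be called. No step passed for 988 rises (22.7%) and 1278 falls (29.1%). Their median net changes were 0.54 and -0.58 on the log2 scale, against 1.17 and -1.01 for the net-called genes with a step that passed. In 261 rises and 183 falls a step was called against the net change, so that the level moved away before or after. Among the rises, 124 were called lower at the first step, 84 across birth and 55 at the last step. Among the falls, 56, 99 and 31 were called higher at these steps.

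The genes named were the pair with the largest net rise and the pair with the largest net fall among called genes with a mean of at least 10 scaled CPM. They were picked by the net change, so its p is given as a description. ENSOARG00000003501 stood at 8.38, 8.63 and 8.63 CPM in the G85 libraries and at 24.4, 18.7 and 36.1 at G133. It reached 847, 1536 and 920 CPM at D42 and 4047, 2784 and 3345 at D243. The libraries of each age lay above all libraries of the age before. The net log2 change was 9.42 ± 0.265 (SE; limma adjusted p = 2.87e-10), of which 19.3% was made at the first step, 60.3% across birth and 20.4% at the last. It was among the genes whose step across birth led by the test (limma adjusted p = 0.00102).

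ENSOARG00000018571 had the second largest rise and a mixed start. It was listed at 6.9 CPM in G85 replicate 1, on 139 reads, and at 0 in G85 replicates 2 and 3. The G133 libraries stood at 6.89, 13.7 and 27.5 CPM, the lowest of them just under G85 replicate 1, so these ages overlap in deposited CPM. On scaled CPM they do not, as the factor was 1.54 for G85 replicate 1 and 1.22 for G133 replicate 1. At D42 it had 812, 459 and 439 CPM and at D243 419.7, 355 and 869.7, and D42 and D243 overlap on both scales. The net log2 change was 8.65 ± 0.667 (SE; limma adjusted p = 3.87e-07). The first step made 34.2% of it, the step across birth 64.1% and the last 1.76%. No step led by the test (limma adjusted p = 0.2), and the net change ranged from 8.21 to 9.41 as single libraries were left out, the latter without G85 replicate 1. The size also moved with the pseudocount. The net log2 change was 6.85 with a pseudocount of 5 and 10.06 with 0.25, and that of the first step 1.56 and 4.26.

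ENSOARG00000011750 had the largest fall. Its G85 libraries stood at 527, 767 and 783 CPM and its G133 libraries at 29.4, 33.3 and 15.8. It was at 0.853, 1.08 and 0.764 CPM at D42, on 9 to 15 reads, and at 8.22, 1.78 and 2.73 at D243. All D243 libraries lay above all D42 libraries, and all D42 and D243 libraries lay below those of G133. The net log2 change was -6.29 ± 0.398 (SE; limma adjusted p = 7.63e-08), with log2 changes of -4.30 at the first step, -3.54 across birth and 1.55 at the last. The rise at the last step passed (limma adjusted p = 0.027). Of 23 alternatives, 5 took the call away, and the limma adjusted p over all of them was 0.00657 to 0.111. The 5 were a pseudocount of 5 and the removal of D243 replicate 1 (limma adjusted p = 0.0642) or of any D42 library.

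ENSOARG00000012814 fell by nearly the same amount. It stood at 698, 689 and 841 CPM at G85, at 95.4, 83.6 and 32.8 at G133, at 2.27, 3.61 and 2.35 at D42 and at 8.46, 1.97 and 3.29 at D243. The ages did not overlap up to D42, whereas D42 and D243 did. The net log2 change was -6.29 ± 0.417 (SE; limma adjusted p = 1.1e-07), with -3.09 at the first step, -3.84 across birth and 0.65 at the last (limma adjusted p = 0.369). Both falling genes had their highest D243 value in replicate 1. Their net changes were -6.83 and -6.78 without that library and -5.87 and -5.85 without D243 replicate 2.

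**Figure D3:**
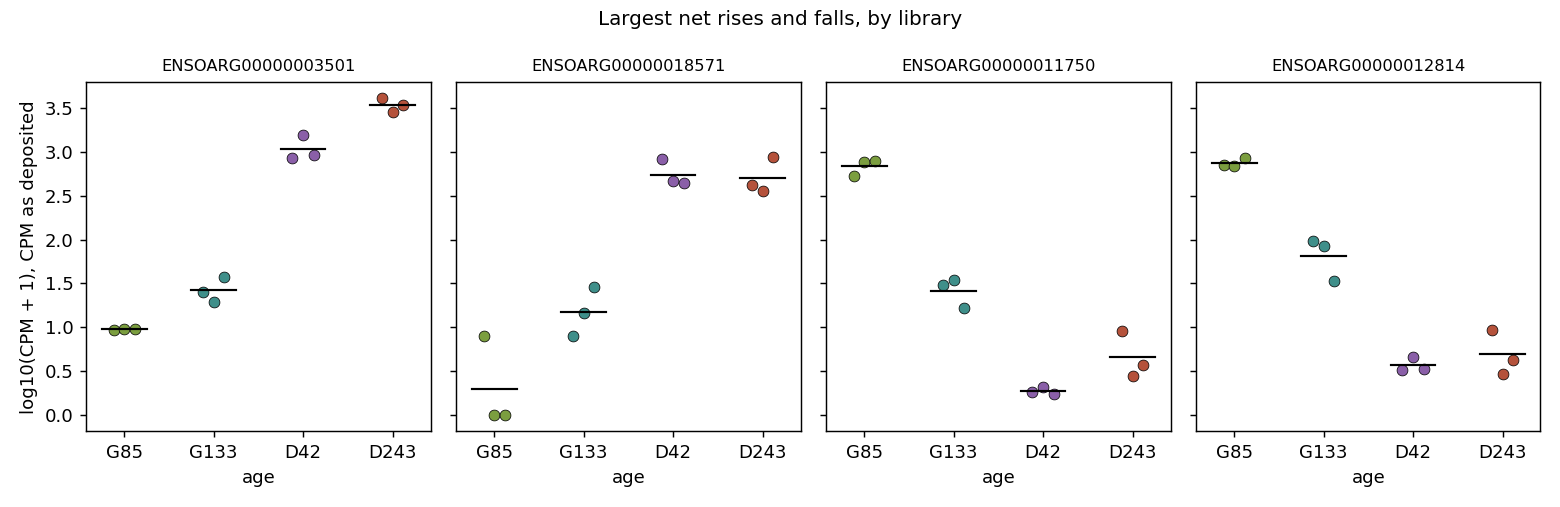
Level of the 4 genes with the largest net rises (left pair) and falls (right pair) in each of the 12 libraries, as log10(CPM + 1) of the deposited values. Points are libraries, 3 per age, and bars their mean. ENSOARG00000003501 climbs to 4047 CPM or less at D243, and both falling genes are below 10 CPM in every D42 and D243 library.

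The 12 largest rises under the same rule had net log2 changes between 6.57 and 9.42, and those of the 12 largest falls lay between -4.70 and -6.29. All 24 kept their direction and passed in deposited CPM, where 84.7% of all genes passed. They were picked as the largest called changes of the same libraries, so this is a description. The 12 rises started from mean levels of 0.699 to 87.8 CPM at G85 and reached 124 to 13063 CPM at D243. The 12 falls started from 65.1 to 1479.7 CPM and ended at 0.52 to 25.5 CPM. The steps share libraries with the net change by which these genes were picked, so the following counts are descriptions. Over all 15743 genes, 2019, 2755 and 1138 were called higher at the successive steps, and 2441, 2346 and 700 lower. All 12 rises were called higher at both the first step and the step across birth, and 4 of them at the last step as well. Of the 12 falls, 8 were called lower at both of these steps and 1 at all 3. Their largest step by value was the first for 6 rises and 8 falls, the step across birth for 5 rises and 4 falls, and the last for 1 rise.

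The position of the middle ages was also measured over all genes at once, as a projection on the straight line from the mean G85 profile at 0 to the mean D243 profile at 1. A library of either end was projected on the line made without it. The G133 libraries lay at 0.431, 0.433 and 0.409 and the D42 libraries at 0.831, 0.824 and 0.775. The G85 libraries fell at 0.01 to 0.023 and the D243 libraries at 0.947 to 0.978. The 4 ages thus kept their order with no overlap. The means were 0.424 ± 0.0131 at G133 and 0.810 ± 0.0306 at D42 (SD, n = 3 each; two-sided exact permutation p = 0.1, the smallest that 3 against 3 allows). The end libraries, each projected on the line made without it, had means of 0.019 at G85 and 0.964 at D243. Steps between these 4 age means were 0.406, 0.386 and 0.155. They do not sum to 1, since the end means fell inside the ends of the line.

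Off the line, the distance was 0.396, 0.525 and 0.538 on the log2 scale for the G133 libraries and 0.386, 0.399 and 0.369 for those of D42. It was 0.216 to 0.312 for G85 and 0.316 to 0.44 for D243 libraries. G133 replicates 2 and 3 were therefore farther off than any other library, while G133 replicate 1 lay within the range of the D42 and D243 libraries. The D42 libraries lay within the range of the D243 libraries too. The G133 and D42 distances overlapped (two-sided exact permutation p = 0.2). The position of G133 replicate 1 along the line did not differ from the others by more than their spread.

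**Figure D4:**
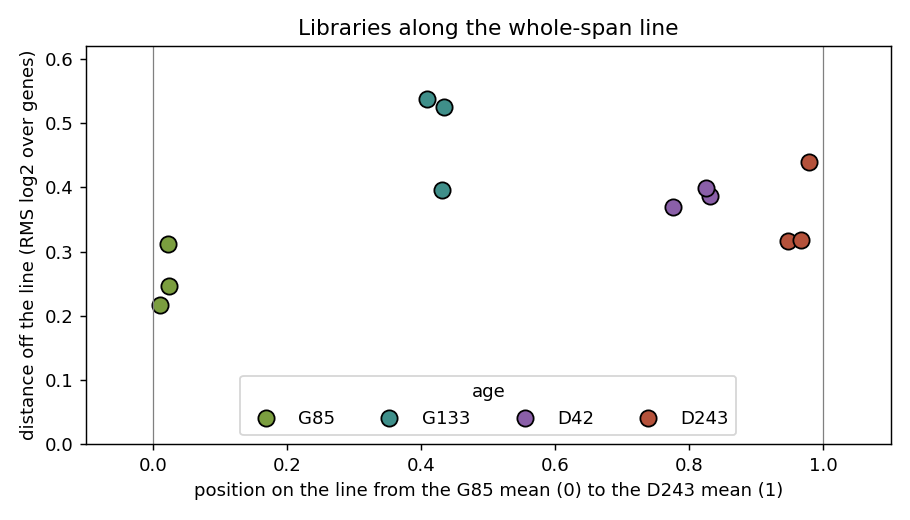
Position of each library on the line from the mean G85 profile (0) to the mean D243 profile (1) over 15743 genes (x), against its root mean square log2 distance off that line (y). Points are libraries, 3 per age. The G133 libraries sit at 0.409 to 0.433 and the D42 libraries at 0.775 to 0.831.

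A large part of the reads belonged to other genes at the end of the span than at its start. Between the mean profiles of G85 and D243, 50.2% of reads changed place, and between single libraries 47.8% to 53.4%. Within G85 the figure was 6.17% to 11.6% and within D243 8% to 11%. The gain was concentrated and the loss was diffuse. In all, 2384 genes gained share and 13359 lost it. Shares have a fixed total, so a gene can lose share without falling relative to the median gene. The 12 largest gains made up 50% of the reads gained, whereas 50% of the reads lost took 475 genes, and 90% took 216 and 5131. The gene that gained most took up 8.6 further percentage points. The 2384 gaining genes held 19.5% ± 1.21 of reads at G85 and 37% ± 4.54 at G133. After birth they held 65.3% ± 0.8 (D42) and 69.7% ± 1.79 (D243; SD, n = 3 at each age). Their gain was thus 17.5 points at the first step, 28.3 across birth and 4.42 at the last. These genes were picked, without a test, by a higher mean share at D243 than at G85, so their net gain is a description. Chance deviations of the end libraries add to the first and last steps.

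The most abundant transcripts were partly exchanged. Of the 50 most abundant genes at G85, 20 were still among the 50 most abundant at D243. These 20 were all called higher at D243, and their part of the reads went from 7.89% ± 1.03 at G85 to 16.6% ± 1.8, 31.6% ± 0.578 and 31.9% ± 3.05. The 30 that left held 10.9% ± 1.34 at G85, and at the successive later ages 6.86% ± 0.9, 2.08% ± 0.185 and 1.74% ± 0.15. Of them 21 were called lower and 9 not called, and their median rank at D243 was 205. The 30 that entered went from 2.24% ± 0.229 at G85 to 5.85% ± 1.43, 13.4% ± 0.555 and 14.6% ± 0.119. Their median rank at G85 was 194, and the lowest such rank was 11652. Being chosen by their level at an end, the entering and leaving genes had to move as they did, and no test is given. The 20 were chosen by a high level at both ends. Over all 15743 genes, 4351 were called higher and 4399 lower. Of the first 50 genes by mean log2 level at both ends, 39 were called higher and 6 lower. At the last step the leaving genes fell by 0.332 points and the entering ones gained 1.26.

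**Figure D5:**
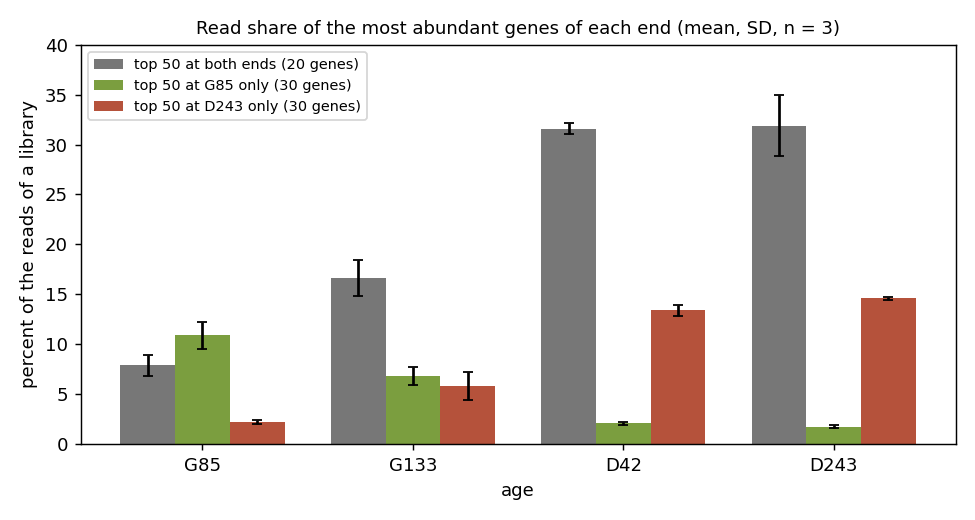
Percent of reads (mean with SD, 3 libraries per age) held by the genes among the 50 most abundant at both ends (grey, 20 genes), at G85 only (green, 30) and at D243 only (red, 30). The green group falls from 10.9% to 1.74% and the red group climbs from 2.24% to 14.6%, with most of either change made by D42.

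Few genes were off at one end and clearly on at the other. In deposited CPM, 36 genes had at least 10 CPM in each G85 library and under 1 CPM in each D243 library, and 6 genes had the reverse. On scaled CPM these counts were 4 and 14, so the side with more genes turned with the scale. The part of the reads held by the group of 36 was 0.0729% to 0.0813% in the G85 libraries and 0.011% to 0.0141% in those of G133. It was 0.00259% to 0.00344% in the D42 libraries and 0.00134% to 0.00208% in those of D243. By D42 none of them had 10 CPM in all 3 libraries and 18 were under 1 CPM in all 3. Their median level was 17.2 CPM at G85 and 3.21 at G133. Of the 6 genes that came on, 4 had at least 10 CPM in every D42 library, and the highest reached a mean of 124 CPM at D243. All 42 were called in the net change, against 55.6% of all genes. The rule asked for a wide gap between the same libraries, so this is a description and not a further result. Without G85 replicate 1, with fewer libraries to meet the rule, the 6 became 10.

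The 6993 genes that were not called in the net change were not all stable. Of them, 3437 (49.1%) had a 95% interval of the net log2 change inside -0.5 to 0.5, and 6415 (91.7%) inside -1 to 1. At least 1 step was called for 1783 of the 6993 (25.5%), and 553 had steps called in both directions. This was less common than among the net-called genes, where all but 22.7% of the rises and 29.1% of the falls had a step called. Over the 4 ages the limma F test called 9874 genes (62.7%). Of the 9874, 672 had a net interval inside -0.5 to 0.5, so they changed over the 4 ages and ended near their G85 level. The rule admits a small net change that was called, so these need not all be among the 6993. They are the genes counted further on as without a net change. Of the 672, 113 were higher at G133 than at both ends and 158 lower, and D42 stood above both ends in 48 and below both in 61 (limma, adjusted p under 0.05 for each comparison). The F test and the small net change that chose the 672 used the same libraries and favour a departure at a middle age. These counts are therefore descriptions. The departures were small, with a median of 0.42 on the log2 scale from the mean of both ends, and 8 genes departed by 1 or more. The largest were 1.49 up and -1.03 down. Without G85 replicate 1 the 672 became 418, without D243 replicate 1 they became 425, and in deposited CPM they were 242.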

How the data were processed

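RNA sequencing values of 12 libraries were read from 1 table. The authors deposited CPM for 15743 genes, each library summing to 1000000. Per the submitters' processing notes the tools included edgeR 3.34.1, featureCounts 2.0.2 of Subread, RSEM 1.3.3, FastQC 0.11.9 and Trim Galore 0.6.6, with no roles stated. The genome build, annotation, read layout and strandedness were not given in the sources used here. Of 188642 values above 0, 100% lay within 0.01 reads of a whole number of reads, so totals could be recovered. Of the identifiers, 0 matched the RefSeq gene table (assembly ARS-UI_Ramb_v3.0), so 22 planned gene lists and all gene names were not used.

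CPM were divided by median-ratio factors (0.656 to 1.54) and tested as log2(scaled CPM + 1) with limma 3.58.1 (R 4.3.3), a mean-variance trend and age as the only term, over all 12 libraries (8 residual degrees of freedom). P-values are two-sided with Benjamini-Hochberg adjustment over all genes and a threshold of 0.05. The fit was tested on simulated data. Named genes were the 2 largest net rises and 2 largest net falls among called genes with a mean of at least 10 scaled CPM. The scale, members and lists were chosen with earlier results of these data known. Groups and replicate numbers come from the titles. No replicates agreed within sampling noise (chi-square per degree of freedom 12.3 to 148), so no libraries were merged, and p-values reflect only how these libraries spread. Same-numbered D42 and D243 libraries deviated together (correlations 0.189, 0.162 and 0.165), and their shared description number was taken as the animal. Alternatives covered scaling, pseudocount, filter, variance moderation, blocks, count models (edgeR 4.0.16, DESeq2 1.42.0) and leaving out each library.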

Additional observations from a re-analysis of the deposited data

How the results depend on the processing

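The number of genes called in the net change was near 8750 under most settings: 8859 by edgeR (4595 higher, 4264 lower) and 8964 by DESeq2 (4462 and 4502; 62 genes had no adjusted p). Of the calls reported, 4339 rises and 4242 falls were shared with edgeR. With the title number as a replicate block it was 8716, and with the animal number as a random block 8739; under either block each count stayed within 1.5 times and the called changes of the 4 named genes passed. Same-numbered G85 and D243 libraries had deviations from their age means correlated at 0.0191, 0.0981 and 0.0238, against -0.0677 to 0.0691 for other numbers, and 1 of the 3 G85 libraries matched its own number best, so the title numbers were not taken as pairs. At least 2-fold left 3852 genes, 2120 higher and 1732 lower.

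CPM as deposited gave 13328 calls (1449 higher, 11879 lower), 45.1% of the rise across birth, 17.2% of it at the last step and 42.4% of the fall at the first. Led counts there were 118 (rises, birth) and 22 (rises, last step), and 591 and 541 for falls at the first 2 steps; 242 genes changed without a net change, and G133 lay at 0.44 on the line. Quantile normalization put 39.9% of the rise at the first step and 17.9% at the last, with 293 falls led by the step across birth. Leaving the 50 most abundant genes out of the total gave 2580 higher and 7559 lower, 55.4% and 12.2% of the rise at the last 2 steps, 21.8% and 31.1% of the fall there, 17 rises led by the last step, 227 and 69 falls led by the last 2 steps, and 391 genes without a net change. For these shifts the cause was not tested. A pseudocount of 5 gave 1894 genes without a net change and put G133 at 0.41. An interval of 0.25 left 29 such genes and one of 1 gave 3837. Without the 50 most abundant genes, 37.3% of reads changed place. Genes off and then on were 14 at a minimum of 5 CPM, 2 at 20 CPM and 14 on scaled CPM, and genes on and then off were 107, 9 and 4.

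As each library was left out, the ranges were these. Calls numbered 7771 to 9055, of which 3874 to 4446 were rises and 3897 to 4609 were falls. The rise made across birth was 39.3% (without G85 replicate 2) to 42.3%. Rises led by each step ran from 97 to 384, 80 to 500 and 13 to 45, and falls from 100 to 445, 22 to 418 and 9 to 45. Genes without a net change ran from 418 to 880. Genes off and then on ran from 6 to 10 and genes on and then off from 38 to 54, against 6 and 36 with all libraries. Fewer libraries then had to meet the on and off rule, so these counts could only stay or grow. Of 334 recomputed net and step changes of the 4 named genes, 329 passed in the same direction, and the other 5 are those of ENSOARG00000011750 at the last step. Levels under 1 CPM rest on few reads, so the falls of low genes after D42 are measured poorly.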
